A study of Mus musculus with 24 samples.

Results

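The 10 genes described here encode the machinery that makes and removes the unusual 3′ end of histone mRNA. They were chosen by name for their roles, with earlier results of these data known. They are 10 of the 16572 gene names in the RNA-seq table of the study. Slbp encodes the stem-loop binding protein. Lsm10, Lsm11 and Zfp473 encode proteins of the U7 particle, Npat and Casp8ap2 encode proteins of the histone locus body, Cpsf3, Sympk and Cstf2 encode cleavage factors, and Eri1 encodes an exonuclease.

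Ovaries of mice aged 7 days were digested with enzymes and plated, so that the oocytes grew outside the follicle in a dish that also held theca cells, and the largest class, class IV, was taken for RNA-seq. The class IV oocytes of the 5% O2 group had grown for 9 days in 5% oxygen. Those of the 20% O2 group had grown for 14 days in 20% oxygen, and their medium was changed less often. Effects of oxygen, of culture time, of medium changes and of library preparation therefore cannot be told apart. The labels name the strain as C57BL/6 Barb and give both groups the same range of diameter, whereas the methods of the study describe a cross with an SV129 background and a smaller range for the 20% O2 oocytes. Neither group carried a transgene or received a drug. RNA of 280 pooled oocytes per condition, with ribosomal RNA removed, gave strand-specific libraries in duplicate, but the table holds 1 pooled column per condition, so the spread between libraries is unknown and no test was possible.

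Most mRNAs end in a poly(A) tail. The mRNAs of the replication-dependent histones H2A, H2B, H3 and H4 do not, and end instead just after a short stem-loop. SLBP binds this stem-loop and stays with the mRNA through processing, export, translation and decay. The U7 small nuclear ribonucleoprotein (U7 snRNP) pairs with a purine-rich element downstream of the stem-loop and brings in the cleavage factors, and the pre-mRNA is cut between the stem-loop and that element. These steps take place at the histone locus body, a nuclear body that forms on the histone gene clusters. In most dividing cells SLBP is made for S phase and destroyed at its end. The growing oocyte does not replicate its DNA, yet mouse oocytes are known to hold SLBP and to store histone mRNA for the embryo.

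The target of SLBP is shown for 1 histone gene of each core family, the gene with the highest 20% O2 value among those with a perfect stem-loop. Capitals mark the stem-loop (a stem of 6 base pairs that starts with GG, and a loop of 4 bases) and lower case its flanks, 5′ to 3′ on the strand of the gene, read from GRCm38.
H2ac1, chr13:23934886-23934911 (+): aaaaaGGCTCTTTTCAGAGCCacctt
H2bc18, chr3:96270166-96270191 (+): caaaaGGCTCTTTTCAGAGCCacttt
H3c1, chr13:23761885-23761910 (-): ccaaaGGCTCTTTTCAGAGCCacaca
H4c8, chr13:23531453-23531478 (+): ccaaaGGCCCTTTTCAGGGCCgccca
The stem-loops of H2ac1, H2bc18 and H3c1 were identical, and that of H4c8 had another stem with the same loop. Of the 56 core histone genes in the table, 36 held such a stem-loop near their annotated 3′ end, in 7 distinct forms, and 21 of them shared the most common form. For these 56 genes the search also ran past the annotated end. Within the last 200 bases of annotated transcripts alone, such a stem-loop was found in 41 of 21951 protein-coding genes (0.187%). None of the 10 processing genes (0 of 10) held it, and no match says only that these letters are not in this window.

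The U7 RNA is shown because Lsm10 and Lsm11 are the proteins that set its particle apart from those of splicing. A ring of 7 Sm proteins sits on the spliceosomal RNAs, and in the U7 ring LSM10 and LSM11 take the places of SmD1 and SmD2. Capitals mark the stretch at which the ring assembles, bases 21 to 31 of U7.
Rnu7, chr6:124741225-124741286 (-): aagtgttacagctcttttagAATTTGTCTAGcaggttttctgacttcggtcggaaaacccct
The bases before the capitals of U7 include those that pair with the histone pre-mRNA. The U7 RNA itself was not analysed here.

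Values are given as RPM, the reads of a gene scaled to the depth of its column. RPM carry no correction for length, so the levels of different genes are ranked as RPKM, RPM divided by the kilobases of annotated exon. The exons of all annotated transcripts of a gene were merged for this length, and which of them the oocytes used was not examined. A sum or share of RPM counts reads, not transcripts. The depth was 132185259 reads in the 5% O2 column and 40875359 in the 20% O2 column, a ratio of 3.23. Each of the 10 genes had at least 3848 reads in 5% O2 and 1187 in 20% O2. All 95% intervals cover counting error only. They are exact Poisson for levels, Clopper-Pearson for differences and a normal approximation for changes of a ratio. Differences are log2(RPM + 1), 5% O2 minus 20% O2, with the interval of the ratio of reads. Of the 14704 genes that averaged 1 RPM or more, 18.7% were at least 2-fold higher in 5% O2, 9.22% were at least 2-fold lower and 27.9% were apart in either direction, with a median difference of 0.26. All 10 processing genes were among those tested.

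All 8 oocyte markers, among them Gdf9 and Nlrp5, had at least 120 RPM in both columns, with summed levels of 7420 RPM in 5% O2 and 8672 RPM in 20% O2, and 2 of them, Kit (-1.59) and Zp3 (-1.12), were at least 2-fold lower in 5% O2. Nobox (0.87) and Ddx4 (0.14) had the highest differences of these markers. The somatic markers were low but uneven. Of the 8 granulosa markers 5 were in the table, with sums of 22.6 and 12.2 RPM, and Fshr had 0 reads in 5% O2 and Inha 0 reads in 20% O2. The 3 that could be tested were Inhba (1.05), Kitl (0.76) and Cyp19a1 (0.59). Of the 12 theca and stroma markers 9 were in the table, with sums of 39.3 RPM in 5% O2 and 4.99 RPM in 20% O2, where Col1a2, Vim and Dcn had 0 reads. Of 6 tested, 5 were at least 2-fold higher in 5% O2 (1 with a pseudocount of 5 RPM), with Cyp11a1 at 16.4 RPM against 0.12 RPM (3.96), Postn at 5.25 against 0.37 RPM (2.19) and Star at 5.18 against 1.86 RPM (1.11), and Fn1 had 4.94 against 2.30 RPM (0.85). The part of somatic RNA in the differences below was not tested, and in pooled samples fewer cells of a type and less RNA per cell cannot be told apart.

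Transcripts for all 10 processing genes were present in both conditions, and the set did not move as a block. Slbp and Casp8ap2 were at least 2-fold higher in 5% O2, and the other 8 genes were less than 2-fold apart. In the deposited values 6 genes were higher in 5% O2 (Casp8ap2, Slbp, Lsm11, Sympk, Eri1 and Cpsf3) and 4 were lower (Zfp473, Cstf2, Lsm10 and Npat). The 2 genes past 2-fold make 20.0% of the set, near the 18.7% of all genes that were as much higher. The median difference of the 10 genes was 0.29 against 0.26 for all genes tested, and 5 of them lay above and 5 below the median gene. Counted as reads, the 10 genes together had 1391 RPM in 5% O2 and 897 RPM in 20% O2. Slbp alone made up 48.2% and 36.5% of these sums, and without it they were 721 and 570 RPM.

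**Figure D1:**
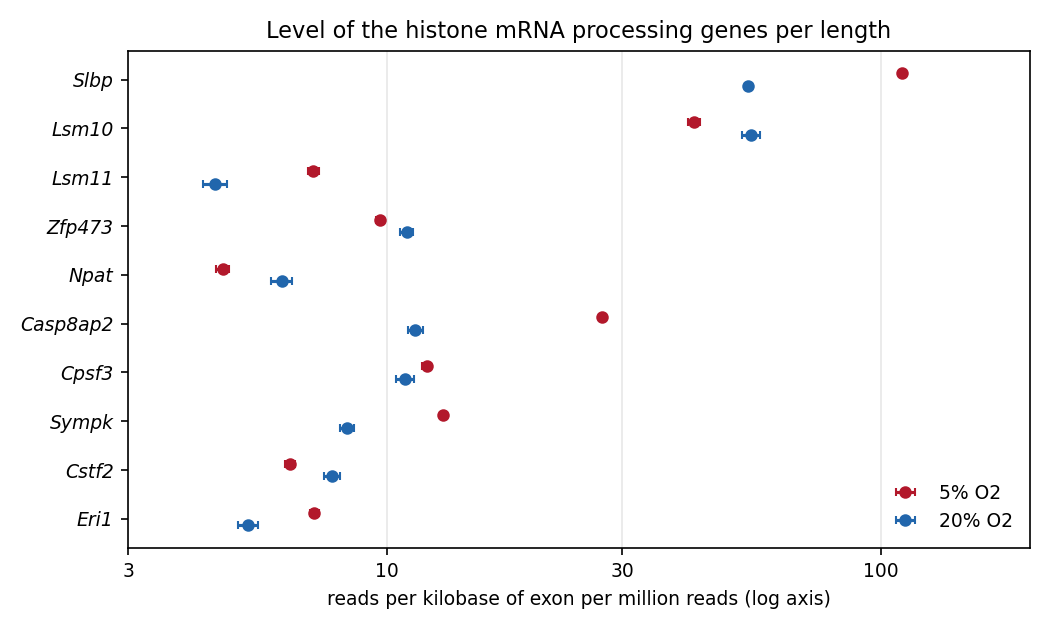
Level of each of the 10 genes in RPKM (log axis), in 5% O2 (red) and 20% O2 (blue), with 95% counting intervals. Slbp and Lsm10 lie at the top in both conditions, and Slbp is level with Lsm10 in 20% O2 (53.9 against 54.7) but above it in 5% O2 (110.4 against 41.9).

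Slbp had the most reads of the 10 genes in both columns. It lies on chr5:33634952-33652574 of GRCm38, on the minus strand, with 6076 bases of annotated exon. Slbp had 671 RPM (88673 reads) in 5% O2 and 327 RPM (13379 reads) in 20% O2. The log2 difference of Slbp was 1.03 (95% interval 1.01 to 1.06), or 0.77 above that of the median gene, and 82.3% of the genes tested had a smaller one. With the columns scaled by their median ratio the difference of Slbp was 0.74, and with quantile normalization 0.87, so that it was higher in 5% O2 each time but no longer by 2-fold. Per length, Slbp had 110.4 RPKM in 5% O2 and 53.9 RPKM in 20% O2, above 98.4% and 95.7% of the genes with an annotated length. The genes with the RPM most like those of Slbp in both columns, without regard to length, were Smc4, Edrf1 and Eef2, at distances of 0.09, 0.15 and 0.16 in log2(RPM + 1). Smc4, a condensin subunit gene, had 633 and 320 RPM. Of the 100-base windows in the exons of Slbp, 6.45% occurred more than 1 time in the genome, and 7.80% of its exonic bases lay opposite the antisense gene Gm10459.

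Casp8ap2 and Npat differed in opposite directions. Casp8ap2 encodes FLASH, which binds LSM11 and helps to recruit the cleavage factors, and NPAT is the cyclin E/CDK2 substrate that activates transcription of the histone genes. Casp8ap2 had 186 RPM (24607 reads) in 5% O2 and 78.0 RPM (3188 reads) in 20% O2. Its log2 difference of 1.24 (1.20 to 1.31) was the largest of the set. Scaling left it higher in 5% O2, at 0.96 with the median ratio and 1.03 with quantile normalization. Npat was the lowest gene of the set per length in 5% O2, with 29.1 RPM or 4.66 RPKM, against 38.3 RPM or 6.13 RPKM in 20% O2. The log2 difference of Npat was -0.38 (-0.48 to -0.31), and -0.67 and -0.55 with both scalings. A ratio of 2 genes within a column is not changed by a factor that scales the whole column. Quantile normalization can change such a ratio. Per length, Casp8ap2 transcripts were 5.85 times those of Npat in 5% O2 and 1.86 times in 20% O2, a log2 change of the ratio of 1.65 (1.55 to 1.75). Casp8ap2 is on chr4:32615451-32653265 (+) and Npat on chr9:53537047-53574342 (+), and no 100-base window of either was repeated in the genome.

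Transcripts for the ring proteins that are particular to U7 also differed in opposite directions. Lsm10 is a short gene of 943 exonic bases (chr4:126096623-126098584, +), and few reads gave it a high level per length. Lsm10 had 39.5 RPM (5223 reads) in 5% O2 and 51.5 RPM (2107 reads) in 20% O2, which correspond to 41.9 and 54.7 RPKM. Lsm11 (chr11:45928269-45944935, -) had 45.8 RPM (6060 reads) and 29.0 RPM (1187 reads), or 7.10 and 4.50 RPKM. Lsm10 was thus lower in 5% O2 and Lsm11 higher. The log2 difference was -0.38 (-0.46 to -0.31) for Lsm10 and 0.64 (0.57 to 0.75) for Lsm11. The 923 genes tested with under 1 kb of exon had a median difference of 0.05, and the part of length in the value of Lsm10 was not tested. Transcripts for Lsm10 exceeded those for Lsm11 per length by 5.90 times in 5% O2 and 12.1 times in 20% O2, so the ratio of Lsm11 to Lsm10 was higher in 5% O2 by 1.04 on the log2 scale (0.93 to 1.16). Zfp473, whose zinc finger protein (ZFP100) binds LSM11 and SLBP, had 97.4 RPM in 5% O2 and 110.1 RPM in 20% O2. Its log2 difference was -0.18 (-0.23 to -0.13), on chr7:44731480-44751050 (-).

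The cleavage factor genes were each less than 2-fold apart between the conditions. CPSF3 (CPSF-73) is the endonuclease that cuts both histone and polyadenylated pre-mRNAs, symplekin is the scaffold of the cleavage complex, and CSTF2 (CstF-64) is shared with polyadenylation. Sympk (chr7:19024377-19054618, +) had 137 RPM in 5% O2 and 87.7 RPM in 20% O2, a log2 difference of 0.64 (0.59 to 0.70). Cpsf3 (chr12:21285391-21315056, +) had 63.6 and 57.5 RPM, a difference of 0.14 (0.08 to 0.21) that lay below the median gene. For Cpsf3, median-ratio scaling gave -0.14 and quantile normalization -0.05. Cstf2 (chrX:134059187-134086819, +) had 58.5 and 71.2 RPM, a difference of -0.28 (-0.34 to -0.22). The direction for Cpsf3 therefore depended on the scaling, and those of Sympk and Cstf2 did not in the alternatives run. Per length, Sympk was 1.08 times Cpsf3 in 5% O2 and 0.76 times in 20% O2, and it was 2.04 and 1.07 times Cstf2. Cpsf2, which was named after its values were seen because its protein CPSF-100 is the partner of CPSF-73, had 76.5 and 55.0 RPM, a difference of 0.47 (0.41 to 0.54). Genes on the other strand overlapped 3.71% of the exonic bases of Cpsf3 (Itgb1bp1) and 4.35% of those of Cstf2 (Nox1), and whether the authors counted by strand is not given in the sources used here.

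Eri1 encodes an exonuclease that binds the stem-loop beside SLBP and trims the end of the histone mRNA. Eri1 (chr8:35465253-35496196, -) had 63.3 RPM (8366 reads) in 5% O2 and 46.5 RPM (1902 reads) in 20% O2. The log2 difference of Eri1 was 0.44 (0.37 to 0.52), and it was 0.15 and 0.26 with both scalings. Slbp transcripts were 15.5 times those of Eri1 per length in 5% O2 and 10.3 times in 20% O2.

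**Figure D2:**
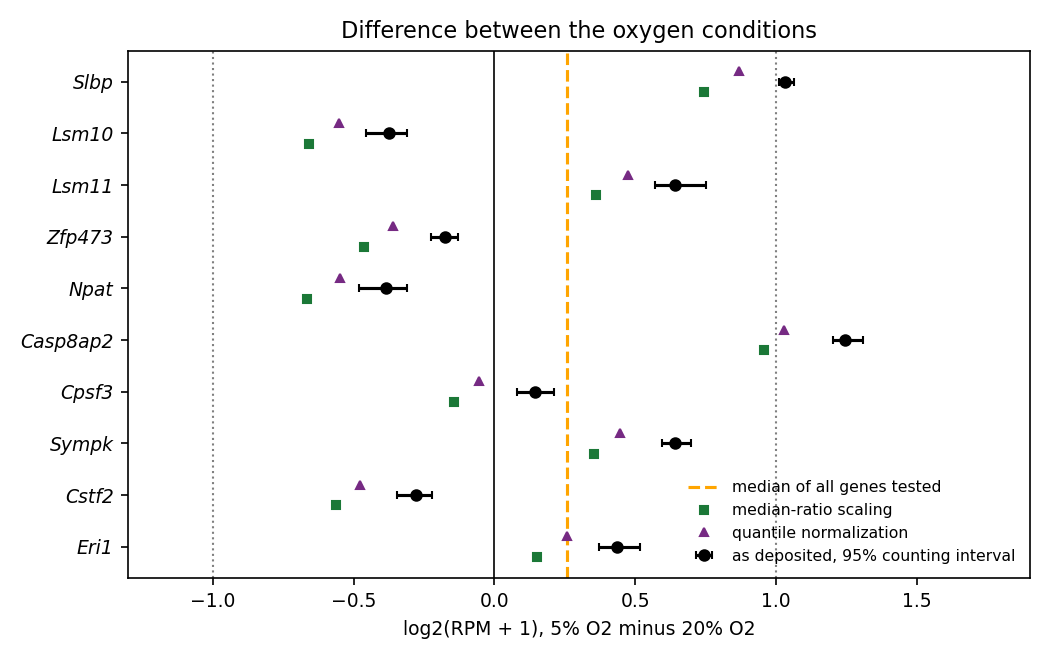
Difference of log2(RPM + 1), 5% O2 minus 20% O2, of each gene as deposited (circles, 95% counting interval), with median-ratio scaling (squares) and after quantile normalization (triangles). Dotted lines mark 2-fold and the dashed line the median of all genes tested (0.26); only Slbp and Casp8ap2 pass 2-fold as deposited, and only Cpsf3 changes direction.

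Ranked per length, the order in 5% O2 was Slbp, Lsm10, Casp8ap2, Sympk, Cpsf3, Zfp473, Eri1, Lsm11, Cstf2 and Npat. Among these neighbours only Eri1 and Lsm11 had counting intervals that overlapped. In 20% O2 the order was Lsm10, Slbp, Casp8ap2, Zfp473, Cpsf3, Sympk, Cstf2, Npat, Eri1 and Lsm11. There the intervals overlapped between Lsm10 and Slbp, between Casp8ap2 and Zfp473, and between Zfp473 and Cpsf3. The highest gene exceeded the lowest by 23.7 times in 5% O2 and by 12.1 times in 20% O2. The spread over libraries and the length of the transcripts present in the oocytes are not known, so neighbours outside the counting intervals may still not differ.

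**Figure D3:**
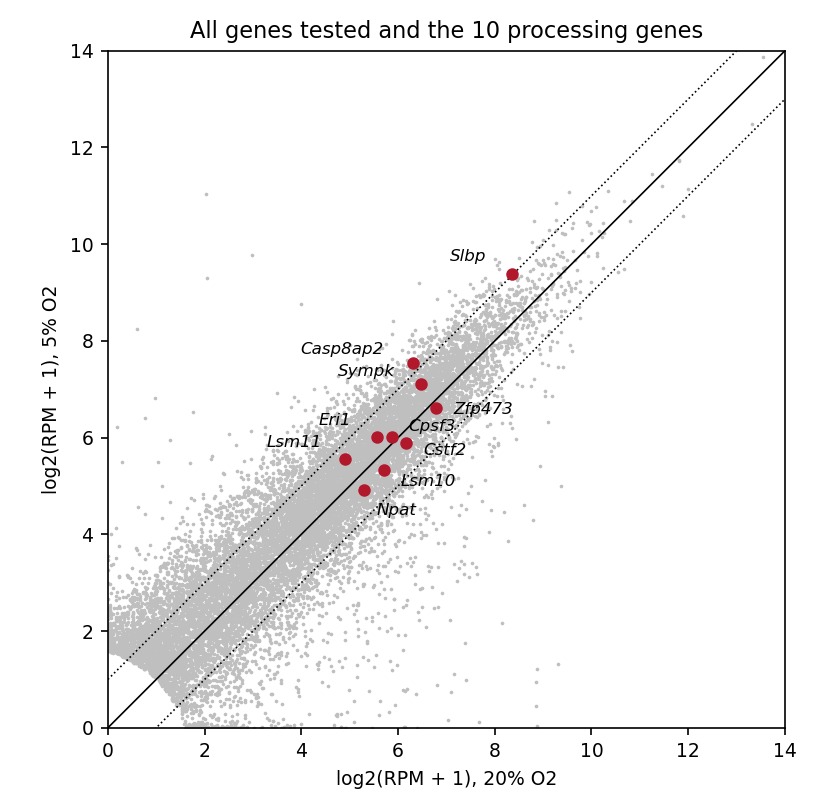
Level of the 14704 genes tested (grey) in 20% O2 (x axis) and 5% O2 (y axis), both as log2(RPM + 1), with the 10 processing genes in red. The solid line marks equal values and the dotted lines 2-fold; Slbp and Casp8ap2 lie at or beyond the upper dotted line and the other 8 between the lines.

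The histone genes on which this machinery acts were lower in 5% O2, with or without a stem-loop found by the search. All 36 core histone genes with it were lower, with a summed level of 567 RPM against 5324 RPM in 20% O2 and a median log2 difference of -3.81, and all 20 without it were lower too, at 375 against 3286 RPM with a median of -3.88. At least 2-fold lower were 55 of these 56 genes and 0 of the 10 processing genes, beside 9.22% of all genes tested, so the count for the processing genes is near the background. Of the histone genes 42 had under 1 kb of exon, a length at which 24.1% of the genes tested were at least 2-fold lower, and the part of length was not tested. Histone genes exist in near-identical copies, and their single values are uncertain. The median share of their 100-base windows that were repeated in the genome was 35.7%, and H2ac18 and H2ac19, named after their values were seen, at 95.9% and 100% repeated, had 4 and 48 reads in 5% O2 against 19029 and 18863 in 20% O2. The size of the difference moved with the share of repeats, though not its direction. The 13 histone genes with at most 10% of windows repeated were each at least 2-fold lower, with a median of -2.98 and sums of 331 against 1828 RPM, or 5.52-fold, and the other 43 genes had sums 11.1-fold apart. With the stem-loop and at most 10% repeated there were 6 genes, at 199.9 against 1015 RPM or 5.08-fold, beside 9.39-fold for all 36.

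Around the 10 genes, 6 lists of partner genes with 98 genes tested were examined. Of these, 7 (7.14%) were at least 2-fold higher in 5% O2 and 10 (10.2%) at least 2-fold lower, beside 18.7% and 9.22% of all genes tested, and their median difference was 0.22. These counts were 3 and 15 with median-ratio scaling (beside 12.2% and 13.3% of all genes) and 5 and 12 after quantile normalization (beside 12.0% and 12.7%).

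The general 3′ end factors, which share CPSF-73, symplekin and CstF-64 with the histone pathway, had a median of 0.49, with 2 of 18 at least 2-fold higher and 1 lower. Median-ratio scaling turned these counts to 1 higher and 3 lower, and quantile normalization to 2 and 3. Of all genes tested, 18.7% were at least 2-fold higher and 9.22% at least 2-fold lower as deposited. Fip1l1, a CPSF subunit gene, had 349 RPM in 5% O2 and 136 RPM in 20% O2, a difference of 1.35. Pabpn1, the nuclear poly(A) binding protein gene, had 22.01 and 9.05 RPM, a difference of 1.19. Cpsf7 (8.12 and 17.6 RPM, -1.03) and Nudt21 (14.9 and 28.04 RPM, -0.87), for subunits of the polyadenylation factor CFIm, were lower. For Nudt21 the value is uncertain, since 42.0% of its 100-base windows were repeated in the genome.

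The list of genes for Sm proteins and their assembly factors stood lowest of the lists. It includes Snrpd1 and Snrpd2, whose proteins LSM10 and LSM11 replace in the U7 ring. Of its 18 genes 0 were at least 2-fold higher and 6 lower, beside 18.7% and 9.22% of all genes tested. Their median was -0.37, or -0.62 relative to all genes. This relative median lay between -0.66 and -0.52 in every alternative run. Snrpd3, for the ring protein SmD3, had 4.97 RPM in 5% O2 and 35.1 RPM in 20% O2, a difference of -2.60. Snrpg, for SmG, had 9.25 and 47.1 RPM, a difference of -2.23. At the upper end were assembly genes, Gemin6 with 42.0 and 26.0 RPM (0.67) and Smn1 with 59.6 and 42.0 RPM (0.49). By role, 4 of 7 Sm genes were at least 2-fold lower, with a median of -1.26, and 2 of 11 assembly genes, with a median of 0.13. Snrpd1 (-0.37) and Snrpd2 (-0.45), named after their values were seen because LSM10 and LSM11 replace their proteins, lay close to Lsm10 (-0.38) and not to Lsm11 (0.64). Short genes were more often lower over the whole table. Of the genes tested with under 1 kb of exon 24.1% were at least 2-fold lower, beside 14.8% of those with 1 to 2 kb, 8.32% of those with 2 to 4 kb, 5.88% of those with 4 to 8 kb and 7.76% of those with more. Of the 7 Sm genes 1 had under 1 kb and 3 had 1 to 2 kb. Snrpd3 had 3.44 kb of exon and no repeated 100-base window. The part of length was not tested.

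**Figure D4:**
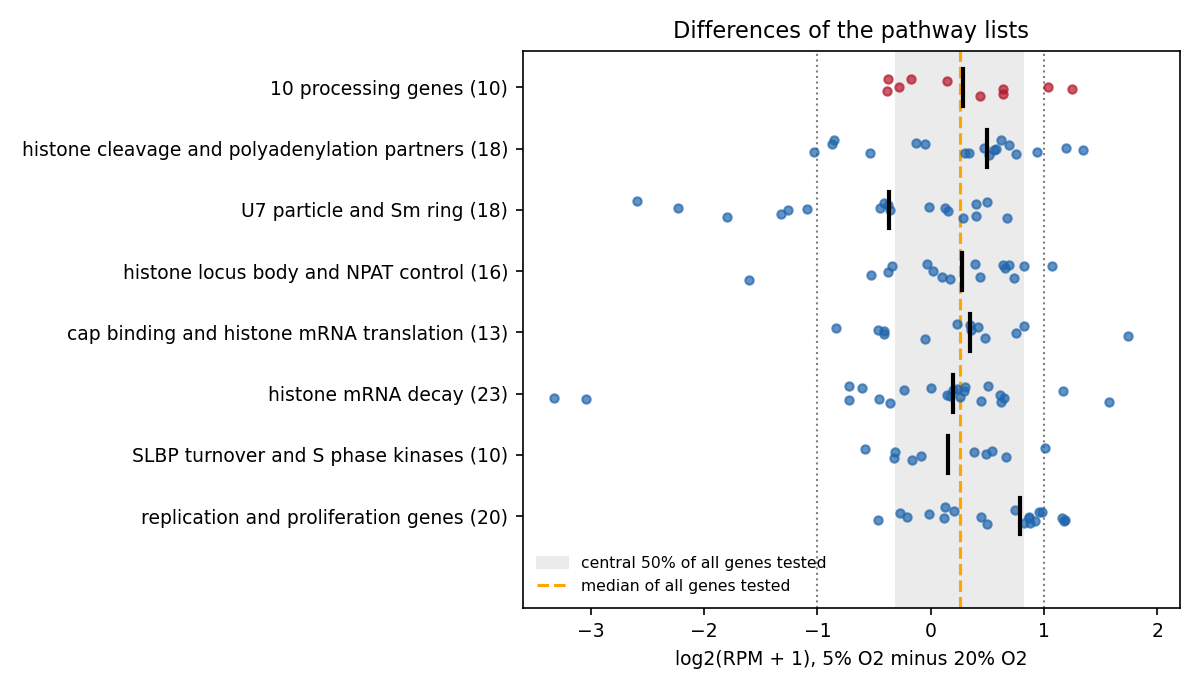
Difference of log2(RPM + 1), 5% O2 minus 20% O2, of each tested gene of the 10 processing genes (red) and of 7 lists (blue, number of genes in brackets), with a bar at each median. The dashed line is the median of all genes tested (0.26) and the grey band their central 50%; the bar of the U7 and Sm list lies at -0.37 and that of the replication list at 0.79.

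The histone locus body and NPAT control list had a median of 0.28. Of its 16 genes 1 was at least 2-fold higher and 1 lower, beside 18.7% and 9.22% of all genes tested. The higher one (Nelfe) was under 2-fold with either scaling. Nelfe, for a subunit of the pausing factor NELF, had 38.1 RPM in 5% O2 and 17.6 RPM in 20% O2 (1.07). Ccne1, for cyclin E1, which with CDK2 phosphorylates NPAT, had 46.6 and 25.9 RPM (0.82). Trrap, for a histone acetyltransferase cofactor recruited by NPAT, had 74.1 and 227 RPM (-1.60), and the transcription factor gene Yy1 had 30.9 and 45.1 RPM (-0.53). Cyclin E1 and Npat transcripts thus lay on opposite sides of equal values.

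Genes for cap binding, export and translation of histone mRNA had a median of 0.35. Of these 13 genes 1 was at least 2-fold higher and 0 lower (1 lower with median-ratio scaling). The shares over all genes tested were 18.7% and 9.22%. Srrt, for the cap-complex protein ARS2, which takes part in histone 3′ end formation, had 85.4 RPM in 5% O2 and 24.8 RPM in 20% O2 (1.74). Ncbp3, for a further cap-binding protein, had 112 and 62.8 RPM (0.82). The genes for both subunits of the nuclear cap-binding complex were lower in 5% O2, Ncbp2 with 19.3 and 35.3 RPM (-0.84) and Ncbp1 with 22.4 and 31.3 RPM (-0.47).

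Among 23 decay genes 2 were at least 2-fold higher and 2 lower, beside 18.7% and 9.22% of all genes tested. The counts of decay genes were 1 and 4 with median-ratio scaling, and their median as deposited was 0.20. Tut7, for a terminal uridylyltransferase, had 78.3 RPM in 5% O2 and 25.7 RPM in 20% O2 (1.57). The LSM1 to LSM7 ring binds uridylated histone mRNA, and its genes spread widely. Lsm4 had 19.2 and 8.0 RPM (1.17), whereas Lsm5 had 2.95 and 38.6 RPM (-3.33) and Lsm7 had 1.44 and 19.2 RPM (-3.05). The values of Lsm5 and Lsm7 are uncertain, since 27.3% and 12.1% of their 100-base windows were repeated. Of the 12 other genes that encode Sm proteins or LSM1 to LSM7, with at most 10% of such windows, 4 were at least 2-fold lower and the median was -0.53.

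The genes for turnover of SLBP and for S phase kinases had a median of 0.15. Of these 10 genes 1 was at least 2-fold higher (0 with either scaling) and 0 lower, beside 18.7% and 9.22% of all genes tested. Ccnf, for cyclin F, which targets SLBP for destruction, was higher in 5% O2 together with Slbp, at 85.8 RPM against 42.1 RPM (1.01). Ccna2, for cyclin A2, whose kinase CDK1 phosphorylates SLBP at the end of S phase, had 270 and 170 RPM (0.66). Fem1b (-0.58) and Fem1c (-0.32), for receptors of ubiquitin ligases, were lower.

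Replication and proliferation genes had a median of 0.79, above those of the 6 partner lists. Of these 20 genes 3 were at least 2-fold higher and 0 lower, beside 18.7% and 9.22% of all genes tested. With either scaling 0 of 20 were 2-fold higher. Mcm3, for a subunit of the replicative helicase, had 139 RPM in 5% O2 and 60.4 RPM in 20% O2 (1.19), and Top2a, for topoisomerase II alpha, had 123 and 54.0 RPM (1.17). Pcna, for the sliding clamp, had 95.1 and 132 RPM (-0.47), with 19.8% of its 100-base windows repeated, and Rrm2, for a ribonucleotide reductase subunit, had 39.8 and 48.3 RPM (-0.27). The differences of Slbp (1.03) and Casp8ap2 (1.24) were above the median of this list, and those of the other 8 processing genes were below it.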

How the data were processed

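The authors trimmed the RNA-seq reads, aligned them to mm10 (GRCm38) with TopHat2 2.0.9 (per the submitters' processing notes), merged reads across exons in SeqMonk and deposited log2 values, 1 column per condition. How each pair of libraries was pooled is not given in the sources used here. The deposited log2 values are named as RPKM, but once the log2 was undone 99.93% and 99.98% of them were whole multiples (within 0.05 reads) of the value of 1 read, which does not change with gene length. They were therefore read as RPM. A value of 0.9 of 1 read was set to 0. A further 1 value column belongs to no sample of the series and was not used. The RRBS and PBAT libraries were not analysed here.

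Of 16591 rows, 16559 were matched to a GENCODE gene of GRCm38, 16401 of them by exact position, for exonic length. Windows of 100 bases, taken every 10 bases within exons, were called repeated if they occurred more than 1 time in 22 chromosome sequences. Windows across splice junctions were not searched. For a repeated name the row with the highest mean was kept. The pseudocount was 1 RPM and the filter a mean of at least 1 RPM; a fold on this scale understates the change of low genes. The count test used in the study needs a value per library, so no test was run. A count of 0 allows up to 3 reads, 0.0227 RPM in 5% O2 and 0.0734 RPM in 20% O2. The reads carry no molecular identifiers.

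The 10 members and the gene lists were chosen with earlier results of these data known. Named are all members, from each list the 2 genes with the highest and the 2 with the lowest difference (all where 4 or fewer were tested), markers, and the 3 genes nearest to Slbp by Euclidean distance. Cpsf2, Snrpd1, Snrpd2, H2ac18 and H2ac19 fall outside this rule and were named after their values were seen. Alternatives were median-ratio scaling, division by exonic length, quantile normalization, summed rows, pseudocounts of 0.1 or 5, and a filter at 5 RPM or none. Scripts were tested on simulated data. The software was matplotlib 3.10.9, numba 0.67.0, scipy 1.17.1, pandas 2.3.3 and numpy 2.4.6 under Python 3.11.15.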

Additional observations from a re-analysis of the deposited data

How the results depend on the processing

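The 80 values of the 10 genes under the 8 alternatives kept their direction except for 2, both of Cpsf3 (-0.14 with median-ratio scaling, -0.0534 after quantile normalization). The number of processing genes at least 2-fold higher, 2, became 0 with median-ratio scaling and 1 (Casp8ap2) with quantile normalization. Over all genes the 2753 higher became 1202 with a pseudocount of 5, 1602 with division by exonic length, 1784 with median-ratio scaling, 1691 with the filter at 5 RPM and 1764 with quantile normalization, and the 1356 lower became 706 with a pseudocount of 5 and 897 with division by exonic length. Median-ratio scaling shifts a difference by -0.29, and by less for genes near the pseudocount, and the share of higher genes among those 2-fold apart was 67.0% as deposited, 48.6% after quantile normalization and 47.7% with median-ratio scaling. Of 160 counts for the lists, 133 stayed within 1.5 times and 27 did not. Among the latter, the theca and stroma markers at least 2-fold higher, 5 as deposited, were 1 with a pseudocount of 5, with the filter at 5 RPM and with division by exonic length. No paired analysis was possible because the libraries of a condition are pooled in 1 column, and for the same reason no replicate could be left out. The depth leaves counting intervals of the 10 genes no wider than 0.18 on the log2 scale, but the spread between libraries is unknown.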
